A study of Mus musculus with 21 samples.

Results

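Transcript levels of genes of cholesterol and fatty acid synthesis were examined in mouse CD4 T cells grown in 4 cytokine mixtures. The set held 30 of the 23415 genes in the deposited table, of which 20 belong to sterol synthesis, its regulation and sterol transport, and 10 to fatty acid synthesis, elongation and desaturation. Genes were listed by function and were kept where they reached 1 TPM (a transcript level adjusted for transcript length and scaled to a fixed total in each library) in at least 3 of the libraries used. All 30 listed genes passed, among 9592 genes that did. The table gives symbols in capitals, such as HMGCS1, SQLE and NSDHL, which are written here in the mouse form (Hmgcs1, Sqle and Nsdhl).

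The cells were naive CD4 T cells of spleen and lymph nodes from mice heterozygous for an Il23r reporter (Il23r wt/eGFP), activated with antibodies to CD3 and CD28 and cultured for 5 days. The reporter allele carries eGFP behind an IRES and makes no working IL-23 receptor, so every group shared 1 working copy of Il23r, and GFP served as the sign that the locus was active. Cells grown with IL-1b (20 ng/ml), IL-6 (25 ng/ml) and IL-23 (20 ng/ml), with TGFb (2 ng/ml) and IL-6 (25 ng/ml), or with IL-12 (20 ng/ml) and IL-21 (20 ng/ml) were sorted into GFPpos and GFPneg cells. These cultures are called the IL-23 mix, the TGFb mix and the IL-21 mix. Cells grown with IL-12 alone (20 ng/ml) are present as GFPneg cells. The first 3 cultures were set against IL-12 alone, and GFPpos cells against GFPneg cells of the same culture. Each of the 7 groups had 3 libraries. The labels do not say whether these came from separate mice or cultures, so the p-values measure the spread between libraries, which may be technical. Age and sex of the mice are not given in the sources used here.

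Of the 21 libraries, 16 were used, each with at least 7000 genes at 1 TPM or more (7522 to 9248). The 5 left out held 190 to 5608 such genes. TGFb mix GFPpos was then represented by replicate 1 alone, TGFb mix GFPneg by replicates 1 and 2, IL-21 mix GFPneg by replicates 1 and 2, and IL-12 GFPneg by replicates 2 and 3, while the other 3 groups kept 3 libraries each. Read counts are not part of the table, so the depth of each library is unknown. All 7 genes listed as CD4 T cell markers were present in the libraries used, Cd4 itself at 61.9 to 153.6 TPM. Not all of the 7 are particular to CD4 T cells. The summed level of each list of B cell, myeloid, natural killer, and erythroid and neutrophil markers stayed at or under 1.42 TPM. Of the CD8 markers, Cd8a reached 0.29 TPM at most and Cd8b1 4.89 to 17.5 TPM. The bulk libraries cannot tell fewer cells of a type from less RNA per cell.

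Cholesterol is built from acetyl-CoA through mevalonate, isoprenoids and squalene to lanosterol, whose ring is then trimmed and reduced. The transcription factors encoded by Srebf2 and Srebf1 (SREBP2 and SREBP1) are released from the endoplasmic reticulum when membrane sterol is low and switch on the sterol and the fatty acid genes, and Insig1 holds them back. Activated T cells use both pathways to make membrane as they grow.

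Promoter sequences were available from RefSeq for 23 of the 30 genes, 16 sterol and 7 fatty acid genes, and the 250 bases before each start were searched on both strands. The longer SREBP site TCACNCCAC was found in 1 of 16 sterol genes and 0 of 7 fatty acid genes, against 1.32% of 7291 tested genes, and the shorter core CACNCCA, which lies within it, in 4 of 16 and 0 of 7, against 17.7%. The E-box CACGTG occurred in 4 of 16 and 0 of 7, against 10.3%. The CCAAT box (CCAAT), bound by NF-Y, occurred in 15 of 16 sterol and 3 of 7 fatty acid genes, against 41.0% of tested genes. The GC box (GGGCGG), bound by Sp1, occurred in 15 of 16 and 4 of 7, against 64.1%. A match is a description of the letters, not a bound site. The gene with the longer SREBP site, Hmgcs1, which makes HMG-CoA, is shown with its 250 bases, and the 8 genes whose levels were higher in GFPpos than in GFPneg cells with the 120 bases before the start. Capitals mark the SREBP site, CCAAT boxes and GC boxes on either strand, in GRCm38.p6, each written 5′ to 3′ on the strand of its gene.
Hmgcs1 (chr13:119690101-119690350, plus strand): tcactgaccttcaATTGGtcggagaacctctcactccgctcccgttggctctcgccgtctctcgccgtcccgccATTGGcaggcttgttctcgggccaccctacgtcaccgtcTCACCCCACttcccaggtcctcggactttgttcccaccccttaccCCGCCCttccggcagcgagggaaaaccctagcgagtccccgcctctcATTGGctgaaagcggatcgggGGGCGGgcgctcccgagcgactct
Mvk (chr5:114444149-114444268, plus strand): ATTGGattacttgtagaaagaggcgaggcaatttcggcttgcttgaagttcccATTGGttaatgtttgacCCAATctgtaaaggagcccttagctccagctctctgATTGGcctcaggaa
Mvd (chr8:122443423-122443542, minus strand): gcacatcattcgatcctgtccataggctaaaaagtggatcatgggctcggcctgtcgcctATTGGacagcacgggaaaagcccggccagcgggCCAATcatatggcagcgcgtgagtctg
Lss (chr10:76531485-76531604, plus strand): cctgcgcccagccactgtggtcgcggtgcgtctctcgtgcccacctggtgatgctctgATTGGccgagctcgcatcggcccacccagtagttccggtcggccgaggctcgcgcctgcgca
Tm7sf2 (chr19:6067851-6067970, minus strand): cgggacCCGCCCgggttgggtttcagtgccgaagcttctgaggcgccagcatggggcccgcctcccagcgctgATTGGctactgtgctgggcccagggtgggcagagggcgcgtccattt
Nsdhl (chrX:72918401-72918520, plus strand): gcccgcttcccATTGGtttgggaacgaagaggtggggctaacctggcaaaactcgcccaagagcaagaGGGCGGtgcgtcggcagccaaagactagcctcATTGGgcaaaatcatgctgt
Hsd17b7 (chr1:169969206-169969325, minus strand): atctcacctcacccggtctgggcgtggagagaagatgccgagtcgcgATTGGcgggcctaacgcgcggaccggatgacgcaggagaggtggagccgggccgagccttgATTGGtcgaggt
Ebp (chrX:8193513-8193632, minus strand): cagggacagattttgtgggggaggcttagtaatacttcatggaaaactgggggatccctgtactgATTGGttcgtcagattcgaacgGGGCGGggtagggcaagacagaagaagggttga
Elovl6 (chr3:129532266-129532385, plus strand): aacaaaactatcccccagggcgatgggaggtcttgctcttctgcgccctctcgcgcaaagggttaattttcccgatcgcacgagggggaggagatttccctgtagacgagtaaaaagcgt
In Hmgcs1 the SREBP site begins 137 bases before the start, between CCAAT boxes, read on the other strand as ATTGG. Each of the 7 sterol genes among the other 8 shows a CCAAT box within 120 bases, and Elovl6 shows none of the searched letters there. Sterol genes outside those 8 have one there too, such as Hmgcs1 (at 45 bases), Idi1 (45), Cyp51 (29) and Sc5d (24). The share of all genes with a CCAAT box within 120 bases was not counted. Nsdhl and Ebp lie on the X chromosome, and Tm7sf2, Scd1, Scd2, Fads1 and Fads2 on chromosome 19.

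Levels spanned a wide range. Over the 16 libraries Fdps, which makes farnesyl diphosphate, had the highest mean at 275 TPM, followed by Acly, which makes cytosolic acetyl-CoA from citrate, at 146 TPM, and the desaturase Scd2 at 71.4 TPM. From Mvd (39.7 TPM) through Fdft1, Hmgcs1, Sqle, Acat2, Cyp51, Sc5d, Idi1, Insig1 and Ebp to Pmvk (22.6 TPM) the means followed one another closely, and the ranges of neighbours in that order overlapped. The lowest were Acss2 at 2.17, the elongase Elovl6 at 1.97 and Acaca, the committed step of fatty acid synthesis, at 1.77 TPM. Within groups the spread on the log2(TPM + 1) scale was smallest for Stard4 (SD 0.16) and Acat2 (SD 0.16) and largest for Srebf2 (SD 0.57). Reads of 38 bases leave some levels uncertain, since part of a gene's transcript sequence also occurs in transcripts of another gene. The share of such sequence was 66.6% in Fdps, 51.7% in Acaca, 43.2% in Acat2, 34.2% in Fdft1, 29.8% in Idi1 and 20.6% in Tm7sf2, and it was 0% in Mvk, Mvd, Nsdhl, Hsd17b7, Ebp, Stard4, Acly, Fasn and Fads1. Acat3, which shares the Acat2 sequence, was at 0 to 1.25 TPM, and Ctsb, which shares part of Fdft1, at 102.6 to 267.4 TPM. Part of the Acat2 sequence also occurs in Tcp1, whose level was not looked up.

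**Figure D1:**
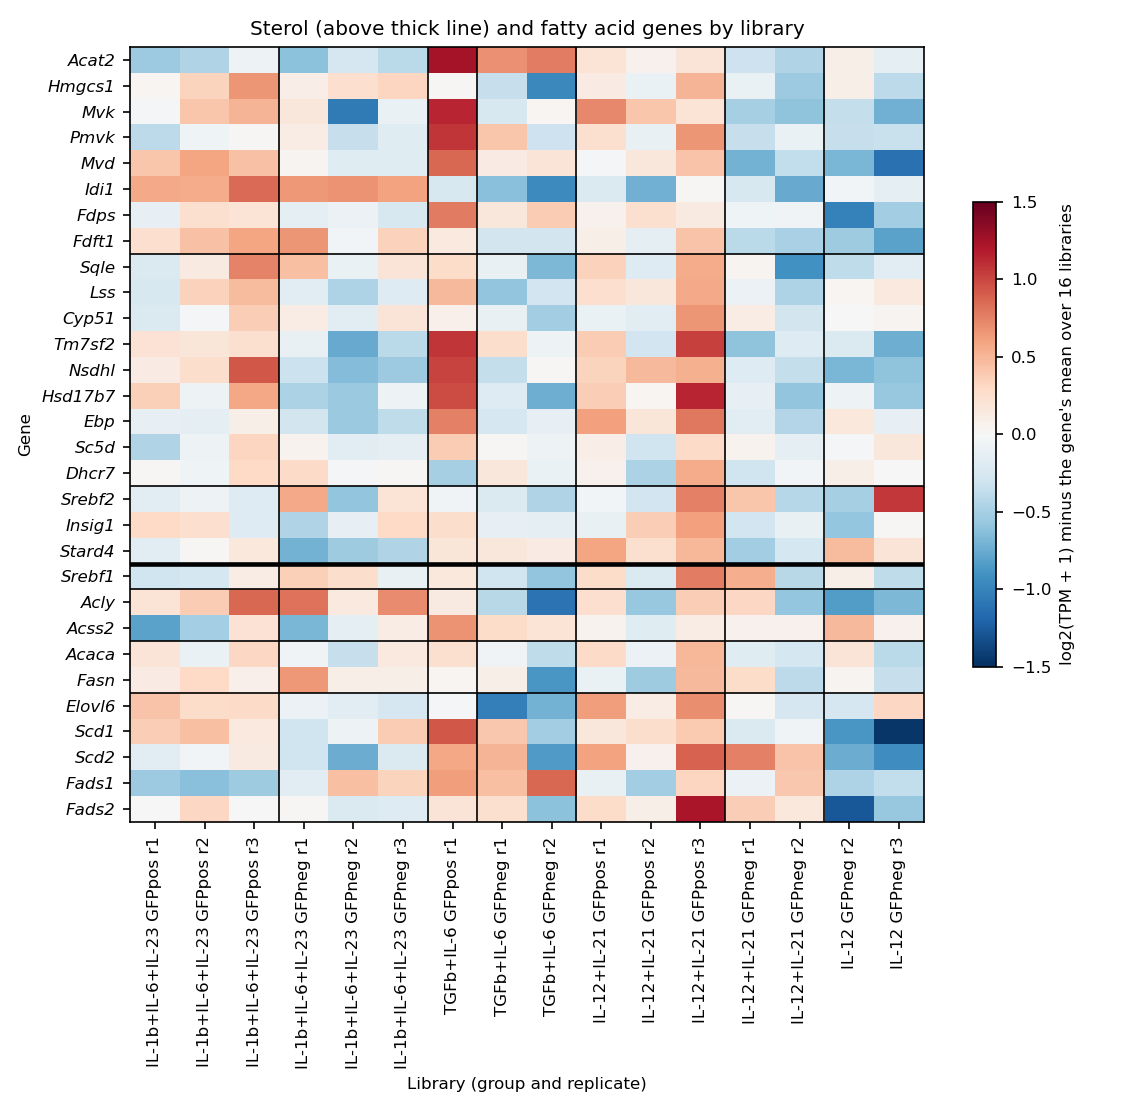
Level of each of the 30 genes (rows, by step of the pathway, sterol genes above the thick line) in each of the 16 libraries (columns, labelled with all cytokines of the culture), as log2(TPM + 1) minus the gene's mean over the libraries. The single TGFb mix GFPpos library is red for most sterol genes, Idi1 is red in all 6 IL-23 mix libraries, and Scd1, Scd2 and Fads2 are blue in both IL-12 GFPneg libraries.

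GFPpos cells had higher levels of several sterol genes than GFPneg cells. Averaged over the 3 cultures that were sorted, 8 of the 30 genes rose in GFPpos cells and 0 fell at an adjusted p under 0.05 (limma, adjusted over the 9592 genes), where 7.39% of all genes tested passed (6.76% higher, 0.636% lower). These were Mvk and Mvd of the mevalonate steps, Lss, Tm7sf2, Nsdhl, Hsd17b7 and Ebp of the steps after squalene, and Elovl6 of fatty acid elongation. By position, 2 of 8 genes from acetyl-CoA to squalene rose, 5 of 9 from squalene to cholesterol, 0 of 3 of regulation and transport, and 1 of 10 fatty acid genes. The median log2 change was 0.44 over the 20 sterol genes and 0.31 over the 10 fatty acid genes, beside 0.23 over all genes tested.

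Nsdhl, Hsd17b7 and Ebp, of the steps after squalene, were among the genes that rose. Sqle, Cyp51, Sc5d and Dhcr7 of these steps did not pass. Nsdhl, a dehydrogenase that helps remove methyl groups from the sterol ring, had 8.95, 9.98 and 16.5 TPM in IL-23 mix GFPpos, against 6.33, 4.83 and 5.29 TPM in GFPneg. Nsdhl was at 17.5 TPM in the TGFb mix GFPpos library, against 6.14 and 8.27 TPM in GFPneg, and at 10.5, 11.8 and 12.3 TPM in IL-21 mix GFPpos, against 6.97 and 6.16 TPM in GFPneg. Every GFPpos library of a culture lay above its GFPneg libraries, by a mean log2 change of 0.95 ± 0.17 (SE, adjusted p = 0.00495). Hsd17b7, the ketoreductase of the same step, had 4.36, 2.97 and 5.26 TPM in IL-23 mix GFPpos, against 2.02, 1.85 and 2.98 TPM in GFPneg. Hsd17b7 was at 7.26 TPM in TGFb mix GFPpos, against 2.66 and 1.53 TPM in GFPneg, and at 4.40, 3.27 and 8.26 TPM in IL-21 mix GFPpos, against 2.84 and 1.78 TPM in GFPneg. The sorts of the IL-23 mix touched, with 1 GFPneg library just above the lowest GFPpos library, and those of the other 2 cultures did not overlap (mean log2 change 0.99 ± 0.22, SE, adjusted p = 0.0184). Ebp, the sterol isomerase, had 20.7, 20.4 and 24.3 TPM in IL-23 mix GFPpos, against 18.6, 15.1 and 17.2 TPM in GFPneg. It was at 39.01 TPM in TGFb mix GFPpos, against 18.96 and 20.8 TPM in GFPneg, and at 35.2, 25.8 and 40 TPM in IL-21 mix GFPpos, against 20.1 and 16.5 TPM in GFPneg. No GFPpos library of Ebp fell within the GFPneg range of its culture (mean log2 change 0.70 ± 0.14, SE, adjusted p = 0.00919).

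Of the other genes after squalene that rose, Tm7sf2, a sterol reductase, had 4.20, 4.06 and 4.29 TPM in IL-23 mix GFPpos, against 3.13, 1.66 and 2.38 TPM in GFPneg. Tm7sf2 was at 8.41 TPM in TGFb mix GFPpos, against 4.39 and 3.26 TPM in GFPneg, and at 4.84, 2.68 and 8.08 TPM in IL-21 mix GFPpos, against 1.94 and 2.93 TPM in GFPneg. The IL-21 mix was the culture whose sorts overlapped (mean log2 change 0.79 ± 0.22, SE, adjusted p = 0.0405). Lss, which closes the ring to lanosterol, had 4.93, 7.86 and 8.71 TPM in IL-23 mix GFPpos, against 5.21, 4.08 and 5.10 TPM in GFPneg. Lss was at 8.74 TPM in TGFb mix GFPpos, against 3.63 and 4.71 TPM in GFPneg, and at 7.33, 6.86 and 9.37 TPM in IL-21 mix GFPpos, against 5.59 and 4.06 TPM in GFPneg. For Lss the sorts overlapped in the IL-23 mix (mean log2 change 0.67 ± 0.17, SE, adjusted p = 0.0313).

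Among the mevalonate genes, Mvd, which makes isopentenyl diphosphate, had 50.1, 57.1 and 51.3 TPM in IL-23 mix GFPpos, against 38.4, 32.8 and 32.8 TPM in GFPneg. Mvd was at 68.97 TPM in TGFb mix GFPpos, against 40.9 and 42.8 TPM in GFPneg, and at 36.8, 42.2 and 50.7 TPM in IL-21 mix GFPpos, against 22.6 and 28.7 TPM in GFPneg. All sorts were apart, with like log2 changes of 0.60, 0.71 and 0.73 in the IL-23 mix, the TGFb mix and the IL-21 mix (mean 0.68 ± 0.13, SE, adjusted p = 0.00727). Mvk, mevalonate kinase, had 4.54, 6.52 and 7 TPM in IL-23 mix GFPpos, against 5.34, 1.70 and 4.27 TPM in GFPneg. Mvk was at 11.4 TPM in TGFb mix GFPpos, against 3.76 and 4.74 TPM in GFPneg, and at 8.27, 6.53 and 5.49 TPM in IL-21 mix GFPpos, against 3 and 2.70 TPM in GFPneg. Overlap was seen in the IL-23 mix, where 1 GFPneg library reached 5.34 TPM (mean log2 change 0.96 ± 0.21, SE, adjusted p = 0.0175). Elovl6, which lengthens saturated fatty acids, had 2.82, 2.44 and 2.47 TPM in IL-23 mix GFPpos, against 1.67, 1.55 and 1.39 TPM in GFPneg. Elovl6 was at 1.79 TPM in TGFb mix GFPpos, against 0.390 and 0.730 TPM in GFPneg, and at 3.37, 2.07 and 3.62 TPM in IL-21 mix GFPpos, against 1.87 and 1.38 TPM in GFPneg. Its sorts did not overlap in any culture, at levels of 0.39 to 3.62 TPM where the log2(TPM + 1) scale understates a change (mean log2 change 0.65 ± 0.18, SE, adjusted p = 0.0377).

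**Figure D2:**
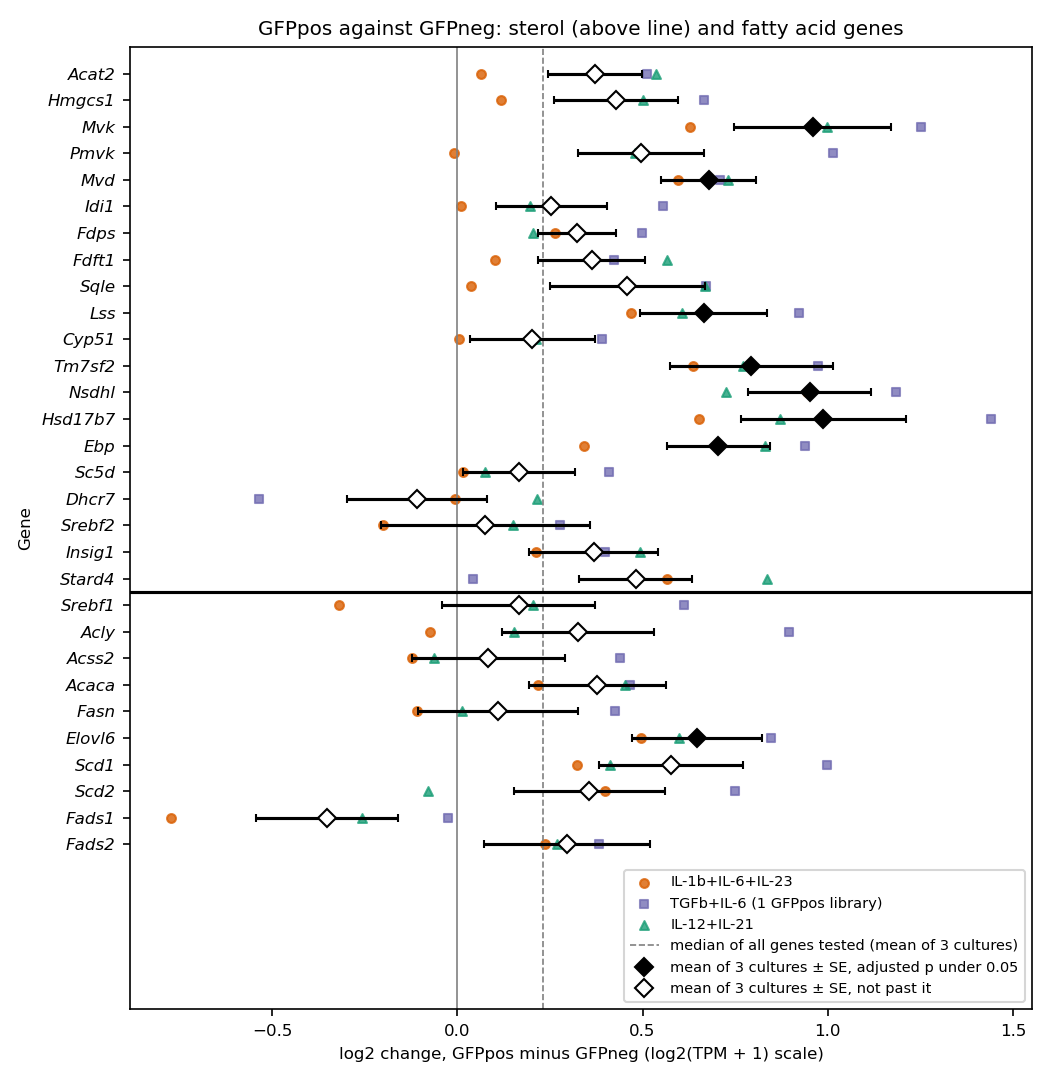
Log2 change in GFPpos against GFPneg cells for each gene (rows) in each culture (coloured points) and averaged over the 3 cultures (diamonds, bars show the SE, filled where the adjusted p was under 0.05). The 8 filled diamonds lie between 0.65 and 0.99, to the right of the dashed line at 0.23, the median of all genes tested.

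The remaining 22 genes did not pass. Stard4, a carrier of sterol between membranes, came nearest, at a mean log2 change of 0.48 ± 0.15 (SE, adjusted p = 0.0618). Hmgcs1 was at 0.43 ± 0.17 (SE, 95% interval 0.07 to 0.78), Idi1, the isopentenyl diphosphate isomerase, at 0.25 ± 0.15 (95% interval -0.07 to 0.57), and Sc5d, a late desaturase, at 0.17 ± 0.15 (95% interval -0.15 to 0.49). Dhcr7, the last reductase, was at -0.11 ± 0.19 (95% interval -0.51 to 0.29), and Fads1, a polyunsaturated fatty acid desaturase, at -0.35 ± 0.19 (95% interval -0.76 to 0.05). Missing the threshold does not show that these genes were alike in both sorts.

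Srebf2, Insig1 and Srebf1 did not pass. Srebf2 had 6.56, 6.98 and 6.36 TPM in IL-23 mix GFPpos, against 11.5, 4.56 and 8.69 TPM in GFPneg. It was at 7.08 TPM in TGFb mix GFPpos, against 6.21 and 5.16 TPM in GFPneg, and at 7.16, 5.87 and 13.2 TPM in IL-21 mix GFPpos, against 10.2 and 5.23 TPM in GFPneg. IL-12 GFPneg had 4.97 and 16.5 TPM, the widest range of any group (mean log2 change in GFPpos cells 0.08 ± 0.28, SE, 95% interval -0.52 to 0.67). Insig1 had 29.7, 28.8 and 20.9 TPM in IL-23 mix GFPpos, against 17.3, 21.97 and 29.6 TPM in GFPneg. Insig1 was at 28.9 TPM in TGFb mix GFPpos, against 21.8 and 21.5 TPM in GFPneg, at 22.2, 31.2 and 37.3 TPM in IL-21 mix GFPpos, against 19.4 and 22.1 TPM in GFPneg, and at 15.7 and 24.2 TPM in IL-12 GFPneg. Its sorts were apart in the TGFb mix and the IL-21 mix and overlapped in the IL-23 mix (mean log2 change 0.37 ± 0.17, SE, adjusted p = 0.182). Srebf1 had 10.3, 10.6 and 14.03 TPM in IL-23 mix GFPpos, against 16.7, 15.7 and 11.9 TPM in GFPneg. Srebf1 was at 14.5 TPM in TGFb mix GFPpos, against 10.2 and 8.20 TPM in GFPneg, at 15.8, 10.9 and 22.6 TPM in IL-21 mix GFPpos, against 19.3 and 9.43 TPM in GFPneg, and at 13.7 and 9.66 TPM in IL-12 GFPneg. The sorts of Srebf1 overlapped in the IL-23 mix and in the IL-21 mix (mean log2 change 0.17 ± 0.21, SE, adjusted p = 0.611).

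Squalene epoxidase (Sqle) and fatty acid synthase (Fasn), enzymes at controlled steps of the 2 pathways, did not pass either. Sqle had 26.6, 34.4 and 52.8 TPM in IL-23 mix GFPpos, against 42.9, 28.9 and 35.9 TPM in GFPneg. Sqle was at 37.9 TPM in TGFb mix GFPpos, against 28.6 and 19.2 TPM in GFPneg, at 39.99, 27.1 and 46.2 TPM in IL-21 mix GFPpos, against 32.1 and 16.1 TPM in GFPneg, and at 23.6 and 27.8 TPM in IL-12 GFPneg. Its libraries overlapped in 2 of the 3 cultures (mean log2 change 0.46 ± 0.21, SE, adjusted p = 0.168). Fasn had 13.5, 15.4 and 13.03 TPM in IL-23 mix GFPpos, against 19.9, 13.1 and 13.1 TPM in GFPneg. Fasn was at 12.6 TPM in TGFb mix GFPpos, against 13.1 and 6.23 TPM in GFPneg, at 11.4, 8.21 and 17.6 TPM in IL-21 mix GFPpos, against 15.1 and 9.11 TPM in GFPneg, and at 12.6 and 9.48 TPM in IL-12 GFPneg. GFPpos and GFPneg values of Fasn overlapped in all 3 cultures (mean log2 change 0.11 ± 0.22, SE, 95% interval -0.35 to 0.57). The remaining genes, given by range over the 16 libraries, were Pmvk (16.2 to 46.3 TPM), Cyp51 (19.7 to 46.1 TPM), Sc5d (19.1 to 34.8 TPM), Dhcr7 (2.06 to 5.34 TPM), Acss2 (0.76 to 3.91 TPM), Acaca (1.06 to 2.84 TPM) and Fads2 (1.67 to 14.1 TPM), and none of them passed in any of the 10 comparisons.

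Taken culture by culture, none of the 30 genes passed in GFPpos against GFPneg cells. In the IL-21 mix 0 of 30 were called by limma where 0.156% of all genes were (0.115% higher, 0.0417% lower), and 11 had an unadjusted p under 0.05, with Ebp (0.83 ± 0.22, SE) and Mvd (0.73 ± 0.20, SE) the nearest. In the IL-23 mix 0 of 30 were called where 0.427% of all genes were (0.344% higher, 0.0834% lower), and 4 had an unadjusted p under 0.05, led by Nsdhl (0.94 ± 0.24, SE). In the TGFb mix 0 of 30 were called where 0.323% of all genes were (0.261% higher, 0.0626% lower), and 10 had an unadjusted p under 0.05, led by Nsdhl (1.18 ± 0.35, SE). That last comparison rests on 1 GFPpos library, which is assumed to vary like the other groups. Signs were alike, with 20, 17 and 19 of the 20 sterol genes above 0 in the IL-21 mix, the IL-23 mix and the TGFb mix, where 7161, 5760 and 7387 of the 9592 genes were. The difference between the GFP changes of the IL-23 mix and the IL-21 mix was tested as an interaction and called 0 of 30 genes, with 0% of all genes called, 0 of the 30 and 474 of all genes having an unadjusted p under 0.05.

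Most genes tested were higher in GFPpos cells, 7509 of 9592 averaged over the cultures. In GFPpos cells the median log2 change of all genes was 0.23 averaged over the cultures, and it was 0.02 once libraries were scaled by their median ratio. With that scaling the median was 0.17 over the sterol genes and 0.05 over the fatty acid genes, and 3 genes rose: Nsdhl at 0.70 (adjusted p = 0.0236), Hsd17b7 at 0.78 (0.0246) and Ebp at 0.44 (0.0308), while Mvd was at 0.41 (0.0833) and Mvk at 0.73 (0.0686). The split of all calls moved to 121 higher and 218 lower, against 648 and 61 without scaling. With all 21 libraries in the fit 0 of the 30 genes and 4 of all genes passed. Over the 2 cultures with replicates in both sorts 3 genes rose, Mvd, Nsdhl and Stard4, an alternative chosen after seeing the data, in which 182 of the 9592 genes passed. Without the TGFb mix in the mean, the calls of Mvk, Lss, Tm7sf2, Hsd17b7, Ebp and Elovl6 were lost. The fits that follow, each without 1 library, all kept the single TGFb mix GFPpos library and so do not test dependence on it. Leaving out libraries 1 at a time gave 4 to 10 genes in 15 fits, in which 340 to 1002 of all genes passed, with 4 without IL-21 mix GFPneg replicate 2 and 5 without IL-23 mix GFPpos replicate 2 or 3, IL-23 mix GFPneg replicate 2, TGFb mix GFPneg replicate 2 or IL-21 mix GFPpos replicate 3. Nsdhl, Mvd, Mvk and Ebp passed in all 15, Hsd17b7 was lost in 2, Lss in 6, and Tm7sf2 and Elovl6 in 11 each. Proliferation genes moved the other way, with 5 of 18 falling in GFPpos cells (median -0.43) and 11 of 18 with median-ratio scaling. Their summed level was 262.9 to 351.8 TPM in IL-23 mix GFPpos, against 348.3 to 473.6 TPM in GFPneg, 1032 TPM in TGFb mix GFPpos, against 1304 to 1401 TPM in GFPneg, and 571.1 to 623.3 TPM in IL-21 mix GFPpos, against 785.2 to 923.1 TPM in GFPneg. Their part in the sterol differences was not tested.

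**Figure D3:**
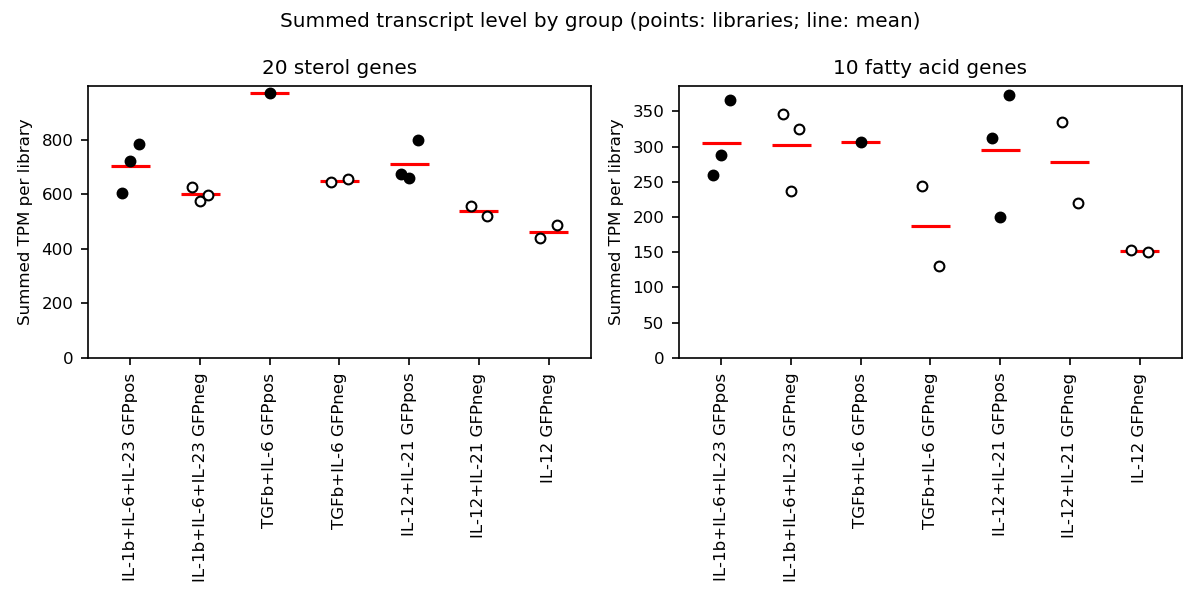
Summed TPM of the 20 sterol genes (left) and of the 10 fatty acid genes (right) in each library (points, filled for GFPpos) with the group mean (line). Sterol sums run from 438.8 TPM in an IL-12 GFPneg library to 970.2 TPM in the TGFb mix GFPpos library. Sterol sums of the 2 sorts overlap in the IL-23 mix, and fatty acid sums overlap in the IL-23 mix and the IL-21 mix.

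Summed over the pathway, the 20 sterol genes took 702 ± 91.7 TPM (SD, n = 3) in IL-23 mix GFPpos, against 600.1 ± 25.8 TPM (n = 3) in GFPneg. These sorts overlapped, with 602.9 TPM in GFPpos replicate 1 and 627.5 TPM in GFPneg replicate 1. The sterol genes took 970.2 TPM in TGFb mix GFPpos (n = 1), against 649 ± 7.27 TPM (n = 2) in GFPneg, and 709.9 ± 77.2 TPM (n = 3) in IL-21 mix GFPpos, against 539 ± 28.2 TPM (n = 2) in GFPneg. IL-12 GFPneg had the lowest sum, 463 ± 33.8 TPM (n = 2). For the 10 fatty acid genes IL-12 GFPneg was again lowest at 152 ± 2.43 TPM (n = 2), beside 303 ± 58.1 TPM (n = 3) in IL-23 mix GFPneg, 187 ± 79.4 TPM (n = 2) in TGFb mix GFPneg and 277 ± 81.6 TPM (n = 2) in IL-21 mix GFPneg. Fdps and Acly, the 2 most abundant genes, weigh most in these sums.

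Between the cytokine mixtures 0 to 6 of the 30 genes passed in a comparison. All 3 comparisons with IL-12 alone share the same 2 IL-12 GFPneg libraries. In IL-23 mix GFPneg cells, against IL-12 GFPneg cells, 5 of the 30 genes rose (Mvd, Fdps, Fdft1, Acly and Scd1) and 1 fell (Stard4), where 7.01% of all genes passed (2.71% higher, 4.3% lower). In TGFb mix GFPneg cells, against IL-12 GFPneg cells, 5 rose (Acat2, Mvd, Fdps, Scd1 and Fads1) and 1 fell (Elovl6), where 20.9% of all genes passed (5.09% higher, 15.8% lower). With both directions together, the share of the 30 genes there, 20%, was near that of all genes. IL-21 mix GFPneg cells, against IL-12 GFPneg cells, had 0 of 30 called by limma, where 0.761% of all genes passed (0.313% higher, 0.448% lower), and 5 with an unadjusted p under 0.05. Medians of the sterol and the fatty acid genes were 0.10 and 0.42 in the first of these comparisons, beside -0.09 over all genes, -0.05 and -0.02 in the second, beside -0.33, and -0.11 and 0.40 in the third, beside -0.09.

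Acly had 156, 176 and 246 TPM in IL-23 mix GFPpos and 239, 149 and 221 TPM in GFPneg. It was at 148 TPM in TGFb mix GFPpos and 101 and 62.1 TPM in GFPneg, at 161, 91.1 and 175 TPM in IL-21 mix GFPpos and 168 and 90.3 TPM in GFPneg, and at 75.05 and 84.1 TPM in IL-12 GFPneg. Every IL-23 mix library lay above both IL-12 and both TGFb mix GFPneg libraries. Acly rose by 1.31 ± 0.32 on the log2 scale (SE, adjusted p = 0.0214) in IL-23 mix GFPneg cells, against IL-12, and by 1.32 ± 0.32 (adjusted p = 0.0121), against the TGFb mix. Between the sorts Acly did not differ beyond its spread (0.33 ± 0.21, adjusted p = 0.31).

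Scd1, a stearoyl-CoA desaturase that makes monounsaturated fatty acids, was lowest with IL-12 alone. It had 7.70, 8.23 and 6.49 TPM in IL-23 mix GFPpos and 4.49, 5.39 and 7.76 TPM in GFPneg. It was at 11.9 TPM in TGFb mix GFPpos and 7.94 and 3.69 TPM in GFPneg, at 6.57, 7.07 and 7.86 TPM in IL-21 mix GFPpos and 4.79 and 5.49 TPM in GFPneg, and at 2.69 and 1.46 TPM in IL-12 GFPneg. Both IL-12 libraries lay under all 14 others. Scd1 rose by 1.16 ± 0.31 (SE, adjusted p = 0.0304) with the IL-23 mix and by 1.10 ± 0.34 (adjusted p = 0.0297) with the TGFb mix, and was 1.02 ± 0.34 higher with the IL-21 mix (adjusted p = 0.179). Scd2, a desaturase of the same family, had 59.2, 64.1 and 72.4 TPM in IL-23 mix GFPpos and 53.6, 39.1 and 56.5 TPM in GFPneg. It was at 99.5 TPM in TGFb mix GFPpos and 94.7 and 36.3 TPM in GFPneg, at 100.5, 68.9 and 123 TPM in IL-21 mix GFPpos and 112 and 89.5 TPM in GFPneg, and at 39.1 and 34.2 TPM in IL-12 GFPneg. Both IL-21 mix GFPneg libraries lay above both IL-12 libraries, at a log2 change of 1.43 ± 0.35 (SE) that did not pass (adjusted p = 0.0777), although it did with median-ratio scaling (1.56, adjusted p = 0.0131). Fads2, a polyunsaturated fatty acid desaturase, was 1.18 ± 0.39 higher in the same comparison (adjusted p = 0.179). In Scd2 the 2 TGFb mix GFPneg libraries differed by more than 2 times. Scd3, whose transcript shares part of the Scd1 and Scd2 sequence, was at 4.72 to 16.6 TPM.

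Fads1 had 2.04, 1.87 and 2.08 TPM in IL-23 mix GFPpos and 2.94, 5.07 and 4.60 TPM in GFPneg. It was at 5.87 TPM in TGFb mix GFPpos and 5.08 and 7.05 TPM in GFPneg, at 3.11, 2.11 and 4.56 TPM in IL-21 mix GFPpos and 3.17 and 4.88 TPM in GFPneg, and at 2.22 and 2.44 TPM in IL-12 GFPneg. TGFb mix GFPneg libraries were above both IL-12 libraries (log2 change 1.07 ± 0.33, SE, adjusted p = 0.0318), and all 3 IL-23 mix GFPpos libraries were below the GFPneg libraries of that culture (-0.77 ± 0.27, adjusted p = 0.399). Elovl6, at 0.390 and 0.730 TPM in TGFb mix GFPneg, against 1.39 and 2.53 TPM in IL-12 GFPneg, fell by 0.91 ± 0.30 on the log2 scale (SE, adjusted p = 0.0458). With median-ratio scaling Elovl6 no longer passed (-0.71, adjusted p = 0.0928).

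**Figure D4:**
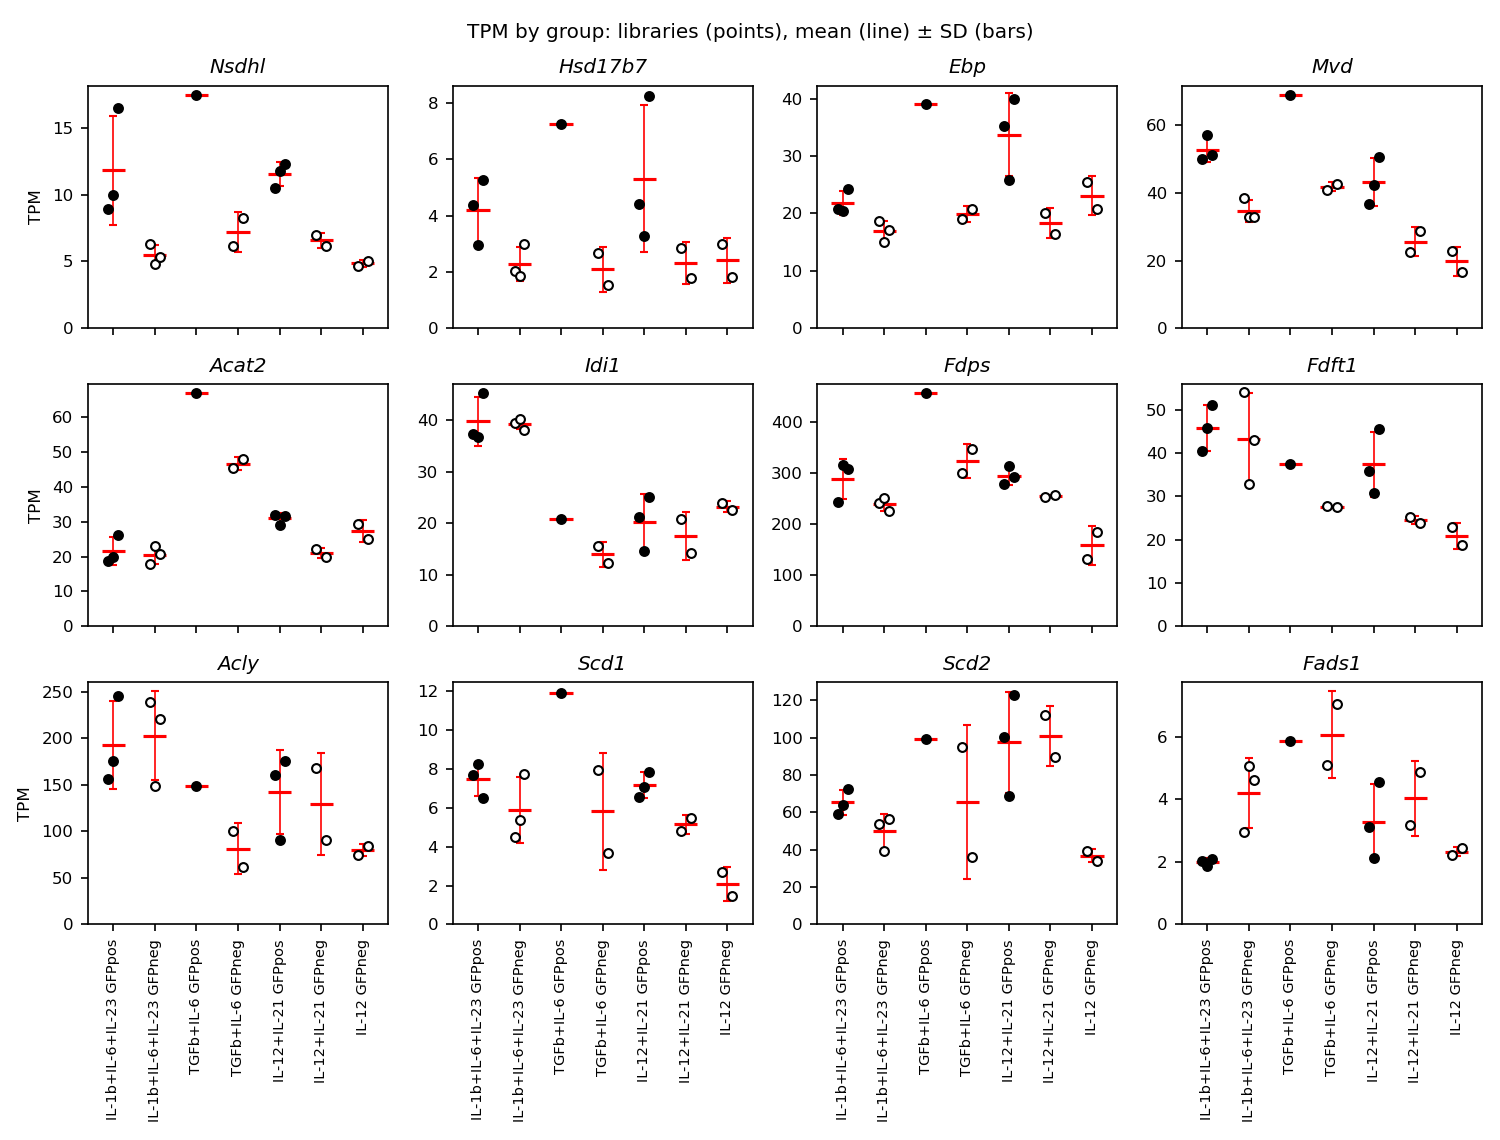
TPM of 12 genes in each library (points, filled for GFPpos) by group, with the group mean (red line) and SD (red bar, where a group had 2 or more libraries). Nsdhl, Hsd17b7, Ebp and Mvd are higher in GFPpos cells, Idi1 is near 40 TPM in both sorts of the IL-23 mix, Acat2 is highest with the TGFb mix, and Scd1 and Fdps are lowest with IL-12 alone.

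Enzymes of neighbouring mevalonate steps differed in which culture had the highest level. Idi1 had 37.3, 36.7 and 45.3 TPM in IL-23 mix GFPpos and 39.5, 40.2 and 38.1 TPM in GFPneg. It was at 20.8 TPM in TGFb mix GFPpos and 15.7 and 12.3 TPM in GFPneg, at 21.2, 14.7 and 25.1 TPM in IL-21 mix GFPpos and 20.8 and 14.2 TPM in GFPneg, and at 23.9 and 22.5 TPM in IL-12 GFPneg. The 6 IL-23 mix libraries were all above the 10 others. Idi1 rose by 1.44 ± 0.24 (SE, adjusted p = 0.000612) in IL-23 mix GFPneg cells, against the TGFb mix, and was 0.73 ± 0.24 higher (adjusted p = 0.0786), against IL-12. Fdps, the next enzyme, had 244, 315 and 307 TPM in IL-23 mix GFPpos and 240.1, 251 and 226 TPM in GFPneg. It was at 457 TPM in TGFb mix GFPpos and 300.1 and 347 TPM in GFPneg, at 278, 314 and 291 TPM in IL-21 mix GFPpos and 253 and 257 TPM in GFPneg, and at 131 and 185 TPM in IL-12 GFPneg. Both IL-12 libraries lay under all others, and Fdps rose by 1.05 ± 0.18 (SE, adjusted p = 0.000931) with the TGFb mix and by 0.61 ± 0.17 (adjusted p = 0.0368) with the IL-23 mix, while with the IL-21 mix it was 0.71 ± 0.18 higher (adjusted p = 0.0921). The authors' counting could assign part of the Fdps reads to copies of this gene, given the shared sequence above.

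Acat2, the first enzyme of the mevalonate route, had 18.7, 19.9 and 26.2 TPM in IL-23 mix GFPpos and 17.8, 23.1 and 20.8 TPM in GFPneg. It was at 66.98 TPM in TGFb mix GFPpos and 45.3 and 48.03 TPM in GFPneg, at 31.98, 29.1 and 31.7 TPM in IL-21 mix GFPpos and 22.1 and 19.9 TPM in GFPneg, and at 29.4 and 24.98 TPM in IL-12 GFPneg. All 3 TGFb mix libraries were above the 13 others. Acat2 fell by 1.15 ± 0.20 (SE, adjusted p = 0.000893) in IL-23 mix GFPneg cells, against the TGFb mix, and rose by 0.76 ± 0.22 (adjusted p = 0.0231) with the TGFb mix, against IL-12. Hmgcs1, the enzyme after it, had 33.9, 42.1 and 53.1 TPM in IL-23 mix GFPpos and 35.7, 39.6 and 41.9 TPM in GFPneg. It was at 33.5 TPM in TGFb mix GFPpos and 25.96 and 16.5 TPM in GFPneg, at 36.4, 30.8 and 47.8 TPM in IL-21 mix GFPpos and 30.96 and 22.4 TPM in GFPneg, and at 35.4 and 25.1 TPM in IL-12 GFPneg. Hmgcs1 rose by 0.88 ± 0.26 (SE, adjusted p = 0.0343) in IL-23 mix GFPneg cells, against the TGFb mix, without overlap, where Acat2 fell. In that comparison 3 of the 30 genes rose (Hmgcs1, Idi1 and Acly) and 1 fell (Acat2), where 15.4% of all genes passed (10.6% higher, 4.83% lower). The share of the 30 genes, 13.3%, was near that of all genes, so the count does not set the list apart.

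Fdft1, squalene synthase, had 40.4, 45.9 and 51.1 TPM in IL-23 mix GFPpos and 54.1, 32.8 and 42.98 TPM in GFPneg. It was at 37.4 TPM in TGFb mix GFPpos and 27.7 and 27.6 TPM in GFPneg, at 35.8, 30.7 and 45.6 TPM in IL-21 mix GFPpos and 25.3 and 23.9 TPM in GFPneg, and at 23.01 and 18.8 TPM in IL-12 GFPneg. IL-23 mix GFPneg lay above IL-12 without overlap (log2 change 0.99 ± 0.23, SE, adjusted p = 0.0142). Mvd, at 22.8 and 16.7 TPM in IL-12 GFPneg, rose by 1.06 ± 0.22 (SE, adjusted p = 0.00367) with the TGFb mix and by 0.79 ± 0.20 (adjusted p = 0.026) with the IL-23 mix. Stard4 had 4.62, 5.37 and 6.03 TPM in IL-23 mix GFPpos and 2.87, 3.35 and 3.62 TPM in GFPneg. It was at 6.17 TPM in TGFb mix GFPpos and 6.08 and 5.85 TPM in GFPneg, at 8.55, 6.45 and 7.94 TPM in IL-21 mix GFPpos and 3.41 and 4.26 TPM in GFPneg, and at 7.81 and 6.23 TPM in IL-12 GFPneg. GFPpos libraries of Stard4 lay above the GFPneg libraries in all 3 cultures, and Stard4 fell by 0.90 ± 0.24 (SE, adjusted p = 0.0318) in IL-23 mix GFPneg cells, against IL-12. IL-12 GFPneg libraries had 4.68 and 5.03 TPM of Nsdhl, 2.98 and 1.83 of Hsd17b7, 25.4 and 20.7 of Ebp, 2.84 and 1.70 of Tm7sf2, 6.14 and 6.71 of Lss and 3.40 and 2.42 of Mvk. None of these genes passed between GFPneg cells of any 2 cultures compared.

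**Figure D5:**
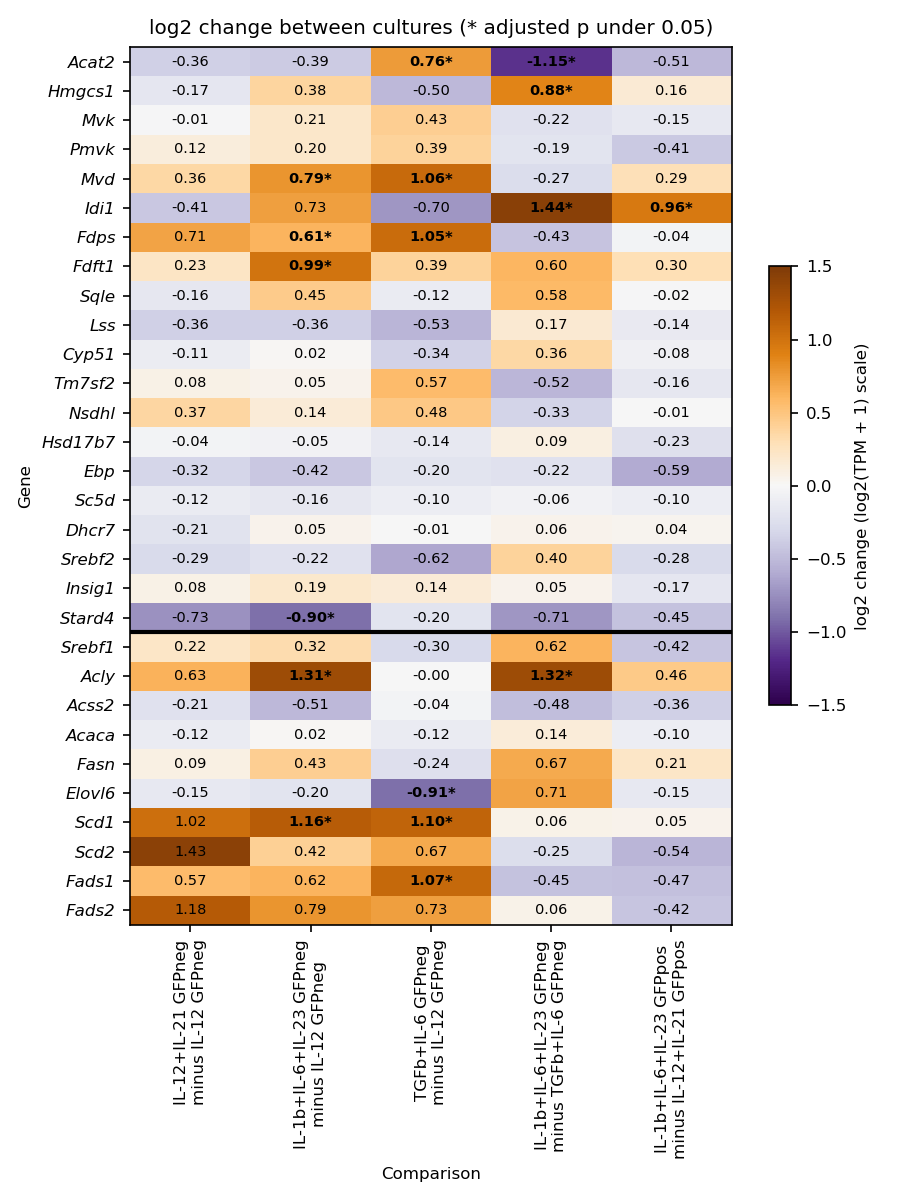
Log2 change of each gene (rows, sterol genes above the line) in 5 comparisons between cultures (columns), printed in each cell, with an asterisk where the adjusted p was under 0.05. The 17 marked cells include Idi1 at 1.44 and Acat2 at -1.15 in the column of the IL-23 mix against the TGFb mix, and no gene is marked in the column of the IL-21 mix against IL-12.

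GFPpos cells of the IL-23 mix and IL-21 mix cultures differed in 1 of the 30 genes, a share of 3.33%, where 4.96% of all genes passed (1.38% higher, 3.59% lower). Idi1 rose by 0.96 ± 0.21 (SE, adjusted p = 0.0118) in IL-23 mix GFPpos, against IL-21 mix GFPpos. The call was lost without IL-23 mix GFPpos replicate 3 or IL-21 mix GFPpos replicate 2. Ebp (-0.59 ± 0.20, adjusted p = 0.116) and Acat2 (-0.51 ± 0.18, adjusted p = 0.136) came next. Medians were -0.12 over the sterol and -0.25 over the fatty acid genes, beside -0.15 over all genes tested.

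Scaling and single libraries moved the culture counts. The median of all genes was -0.33 in TGFb mix GFPneg cells, against IL-12, and 0.00 with median-ratio scaling. With that scaling 11 of the 30 genes rose and 0 fell: Acat2, Pmvk, Mvd, Fdps, Fdft1, Tm7sf2, Nsdhl, Scd1, Scd2, Fads1 and Fads2, with sterol and fatty acid medians of 0.33 and 0.36. In IL-23 mix GFPneg cells, against the TGFb mix, it gave 7, adding Fdps (-0.74), Ebp (-0.51) and Stard4 (-0.98) as lower. All genes called then split 920 higher and 745 lower in the TGFb mix against IL-12, in place of 488 and 1512, 396 and 334 in the IL-23 mix against IL-12, in place of 260 and 412, and 729 and 835 in the IL-23 mix against the TGFb mix, in place of 1015 and 463. With all 21 libraries in the fit 0 of the 30 genes passed in each comparison between cultures. The IL-23 mix count against IL-12 was 1 without IL-23 mix GFPneg replicate 1 or IL-12 replicate 3, 2 without IL-23 mix GFPneg replicate 3, and 3 without IL-12 replicate 2 or IL-23 mix GFPneg replicate 2. The TGFb mix count against IL-12 was 1 without IL-12 replicate 3 and 2 without TGFb mix GFPneg replicate 1, and the count between the IL-23 mix and the TGFb mix was 2 without TGFb mix GFPneg replicate 2. Fdps with the TGFb mix, and Idi1 and Acat2 between the IL-23 mix and the TGFb mix, passed in all 16 fits that left out 1 library, while Elovl6 with the TGFb mix was lost in 11 and Stard4 with the IL-23 mix in 6.

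Proliferation and ribosomal protein genes also differed between these cultures. Of 18 proliferation genes 12 fell in IL-23 mix GFPneg cells, against IL-12, and 16, against the TGFb mix, and 9 fell in IL-23 mix GFPpos cells, against IL-21 mix GFPpos. In TGFb mix GFPneg cells 5 rose, against IL-12. With median-ratio scaling 11, 16 and 4 fell in the first 3 of these comparisons and 12 rose in the last. The shares over all genes in these comparisons, without scaling, were 4.3%, 4.83% and 3.59% lower and 5.09% higher. Pcna, the clamp of the replication fork, averaged 42.8 ± 9.09 TPM in IL-23 mix GFPneg (SD, n = 3), 126 ± 6.14 TPM in TGFb mix GFPneg (n = 2) and 137 ± 1.99 TPM in IL-12 GFPneg (n = 2). Cdk1, the mitotic kinase, averaged 6.29 ± 0.0802, 27.2 ± 1.06 and 14.7 ± 2.28 TPM in the same groups, Birc5 39.95 ± 10.2, 142 ± 13.1 and 67.2 ± 1.52 TPM, and Rrm2 50.4 ± 6.73, 165 ± 3.28 and 156 ± 11.97 TPM. Ribosomal protein genes took 33.7% to 39.5% of TPM in IL-23 mix GFPneg, 44.1% to 44.4% in TGFb mix GFPneg, 35.8% to 41.2% in IL-21 mix GFPneg and 33.2% to 33.4% in IL-12 GFPneg. Their part in the differences of the sterol and fatty acid genes was not tested.

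Other genes of the pathways were taken from lists by function. Of 13 further sterol genes tested, 2 rose in GFPpos cells averaged over cultures, where 6.76% of all genes did. These were Msmo1, the oxidase that works with Nsdhl and Hsd17b7 (0.54 ± 0.13, SE, adjusted p = 0.0207), and Cyb5r3, which feeds electrons to sterol oxidases (0.73 ± 0.15, adjusted p = 0.0112). Msmo1 averaged 76.4 ± 10.1 TPM in IL-23 mix GFPpos (SD, n = 3), against 51.05 ± 4.58 TPM in GFPneg, and 72.3 ± 16.3 TPM in IL-21 mix GFPpos, against 42.9 ± 4.01 TPM in GFPneg. In the TGFb mix Msmo1 was at 46.4 TPM in the single GFPpos library, against 36.96 ± 2.60 TPM in GFPneg (n = 2). Neither Msmo1 nor Cyb5r3 passed with median-ratio scaling, under which 0 of the 13 did. Between cultures 1 of 13 fell in IL-23 mix GFPneg cells, against IL-12, and 2 fell in TGFb mix GFPneg cells: the thiolase Acat1 in both (-0.87 ± 0.24, -0.90 ± 0.26) and Tmem97 in the TGFb mix (-0.97 ± 0.26). Of all genes 4.3% fell in the first comparison and 15.8% in the second. The share of this list in the second, 15.4%, was near that of all genes. With median-ratio scaling the IL-23 mix comparison had 2 lower, and the TGFb mix comparison turned to 2 higher and 0 lower. Of 11 genes of SREBP processing and turnover, 2 rose in GFPpos cells, where 6.76% of all genes did. Among them was Fbxw7, which marks SREBPs for destruction (0.78 ± 0.20, adjusted p = 0.0336). Rnf139 (-0.96 ± 0.27) and Vcp (-0.86 ± 0.26) fell in TGFb mix GFPneg cells, against IL-12, a share of 18.2%, beside 15.8% of all genes. With median-ratio scaling 0 of the 11 passed in either comparison. In IL-23 mix GFPneg cells, against the TGFb mix, 2 of the 11 rose, where 10.6% of all genes did.

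Of 12 genes of sterol efflux and oxysterol sensing, 4 rose in GFPpos cells, where 6.76% of all genes did, and 2 rose with median-ratio scaling. Among them were Rora, a nuclear receptor, at 0.89 ± 0.16 (SE, adjusted p = 0.00643), Gpr183, a receptor for oxysterols, at 0.81 ± 0.16 (adjusted p = 0.00977), and Npc2, which moves sterol out of lysosomes, at 0.35 ± 0.10 (adjusted p = 0.0451). Against IL-12 GFPneg cells, 2 of the 12 rose and 0 fell in IL-23 mix GFPneg cells, and 3 rose and 2 fell in TGFb mix GFPneg cells. Of all genes 2.71% rose and 4.3% fell in the first comparison, and 5.09% rose and 15.8% fell in the second. With median-ratio scaling 3 rose and 0 fell with the IL-23 mix, and 3 rose and 1 fell with the TGFb mix. In IL-23 mix GFPneg cells, against the TGFb mix, 3 rose and 1 fell, where 10.6% of all genes rose and 4.83% fell.

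Of 23 other fatty acid genes, 3 rose in GFPpos cells, where 6.76% of all genes did, and median-ratio scaling gave 1 higher and 1 lower. Dgat1, the last step of triglyceride synthesis, had the smallest adjusted p of the list. Dgat1 averaged 86.1 ± 7.24 TPM in IL-23 mix GFPpos (SD, n = 3), against 40 ± 3.77 TPM in GFPneg, 141 TPM in TGFb mix GFPpos (n = 1), against 40.5 ± 15.99 TPM in GFPneg, and 84.5 ± 14.7 TPM in IL-21 mix GFPpos, against 50.9 ± 3.08 TPM in GFPneg. IL-12 GFPneg had 20.6 ± 0.0141 TPM, and Dgat1 also rose with the IL-21 mix (1.27 ± 0.25), the IL-23 mix (0.92 ± 0.22) and the TGFb mix (0.89 ± 0.25) against it. Its change between sorts was 1.21 ± 0.14 (SE, adjusted p = 0.000382), and it passed within the IL-23 mix (1.09 ± 0.20) and the TGFb mix (1.83 ± 0.30). Acsl4, which activates long-chain fatty acids, rose by 0.60 ± 0.14 in GFPpos cells, Hacd3, of fatty acid elongation, by 1.51 ± 0.28 in IL-23 mix GFPneg cells, against IL-12, and Tecr, of the same elongation cycle, by 0.68 ± 0.15 with the TGFb mix. In the culture comparisons 3 of 23 rose and 0 fell with the IL-23 mix, against IL-12, where 2.71% of all genes rose and 4.3% fell. With the TGFb mix 3 rose and 4 fell, where 5.09% of all genes rose and 15.8% fell. With median-ratio scaling 4 rose and 0 fell with the IL-23 mix, and the balance with the TGFb mix turned to 4 higher and 2 lower. Of 17 fatty acid oxidation genes, 7 fell and 0 rose in TGFb mix GFPneg cells, against IL-12, where 15.8% of all genes fell and 5.09% rose, and 5 fell with median-ratio scaling. Acadm, a fatty acyl-CoA dehydrogenase, averaged 8.29 ± 0.318 TPM in TGFb mix GFPneg and 38.97 ± 4.45 TPM in IL-12 GFPneg (SD, n = 2 each; log2 change -2.10 ± 0.27, adjusted p = 5.19e-05), and Etfb (-1.40 ± 0.15), Acadl (-1.28 ± 0.23) and Hadhb (-1.24 ± 0.29) fell as well. In GFPpos cells 2 of the 17 rose, Acadm (0.93 ± 0.15) and Acadl (0.51 ± 0.13), where 6.76% of all genes did. With median-ratio scaling Acadm rose. In IL-23 mix GFPneg cells 1 fell and 0 rose, against IL-12, where 4.3% of all genes fell and 2.71% rose. With median-ratio scaling this turned to 1 higher and 0 lower. Against the TGFb mix 2 of the 17 rose in IL-23 mix GFPneg cells, a share of 11.8%, beside 10.6% of all genes. Of the 7 CD4 T cell markers, 1 rose in GFPpos cells, Cd3g (0.53 ± 0.08), which did not pass with median-ratio scaling, and 1 fell in IL-23 mix GFPneg cells, against IL-12, Cd2 (-1.24 ± 0.19). Of all genes 6.76% rose in the first of these comparisons and 4.3% fell in the second. In TGFb mix GFPneg cells 1 of the markers rose and 2 fell, against IL-12, where 5.09% of all genes rose and 15.8% fell. With median-ratio scaling this turned to 2 higher and 0 lower. In IL-23 mix GFPneg cells 1 fell, against the TGFb mix, and in IL-23 mix GFPpos cells 3 fell, against IL-21 mix GFPpos (median -0.72), and 3 and 2 fell with median-ratio scaling. Without that scaling 4.83% and 3.59% of all genes fell in these comparisons. Within the IL-21 mix 1 marker rose in GFPpos cells, where 0.115% of all genes did, and 0 markers rose with median-ratio scaling. The part of these markers in the results was not tested.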

How the data were processed

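Libraries were made from sorted cells with a modified SMART-Seq2 protocol and Nextera XT and sequenced as paired reads of 38 bases on a NextSeq, per the labels' protocols. The submitters' processing notes name Trimmomatic 0.32, Bowtie2 2.2.9, RSEM 1.2.31 and the GRCm38 build. The authors deposited 1 table of TPM values per gene and library, and no read counts were used, so no counting intervals are given. Whether fragments were counted by strand is not given in the sources used here. Libraries with at least 7000 genes at 1 TPM or more were used. Genes with at least 1 TPM in at least 3 of them were tested on log2(TPM + 1) with limma 3.58.1 in R 4.3.3, with 1 mean per group, an intensity trend and Benjamini-Hochberg adjustment over all 9592 genes. The threshold was an adjusted p under 0.05, and log2 changes are on that scale. The fit was tested on simulated data with independent normal spread, in the comparison of IL-23 mix GFPneg with IL-12 GFPneg only. The mean over the 3 cultures and the comparison with a single library were not simulated. Alternatives were another pseudocount, no filter, median-ratio scaling, all 21 libraries, only the groups compared, a replicate block and leaving out each library.

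The 30 genes, the accompanying lists and the tests were chosen with earlier results of these data known. Values in every library are given for each of the 30 genes that passed in any comparison and for Hmgcs1, Sqle, Idi1, Insig1, Srebf1, Srebf2, Scd1, Scd2, Fasn and Acly. The other genes are given by range, and at most 4 genes per accompanying list and comparison are named, those with the smallest adjusted p. Some of these genes are not reported here. Shared sequence was counted as 38-base windows of GENCODE M21 transcripts that occur in another gene.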

Additional observations from a re-analysis of the deposited data

Results flagged for a closer look

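TGFb mix GFPpos replicate 3, a library left out of the comparisons, listed 5 of the 30 genes above the GFPneg libraries of that culture. Mvd was at 214.2 TPM, Fdft1 at 288.0 TPM, Insig1 at 137.0 TPM, Scd2 at 256.0 TPM and Fads1 at 103.0 TPM. A sixth gene, Acly, was at 80.05 TPM, within the GFPneg values of 62.1 and 100.9 TPM, and the other 24 were listed at 0. With 1157 genes above 0 and TPM scaled to a fixed total, a gene detected at all has a high value in such a library, so these values are no measure of a difference between the sorts. The left-out IL-21 mix GFPneg replicate 3, with 1331 genes above 0, likewise listed Fads1 at 61.7 TPM, Fasn at 41.5 TPM and Acaca at 22.9 TPM and 24 of the 30 genes at 0.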

How the results depend on the processing

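Of the 25 calls of a gene in a comparison, 0 held in every alternative: over 596 alternatives the call was the same in 458, lost in 135 and reversed in 3. All 25 were lost or reversed with all 21 libraries in the fit, where 0 of the 30 genes passed averaged over sorts, in IL-23 mix or TGFb mix GFPneg cells, against IL-12, between those 2 cultures, and between GFPpos cells. Reversed there were Mvd (-0.12) and Fdps (-0.44) in the TGFb mix, against IL-12, and Acat2 (0.71) in the IL-23 mix, against the TGFb mix. Of all genes 4, 16, 9, 16 and 32 passed in these 5 fits. The fit then holds libraries with 190 to 5608 genes at 1 TPM or more.

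Median-ratio scaling gave 3 genes averaged over sorts, 1 in the IL-21 mix and 11 in the TGFb mix, against IL-12, and 7 in the IL-23 mix, against the TGFb mix, with 339, 61, 1665 and 1564 of all 9592 genes. Fitting only the groups compared gave 1 in the IL-21 mix, 1 in the IL-23 mix and 3 in the TGFb mix, against IL-12, with 44, 412 and 1738 of all genes. The mean over the 2 cultures with replicates in both sorts, chosen after seeing the data, gave 3, with 182 of all genes. The cause was not tested.

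Leaving out 1 library at a time gave 0 to 0 genes between the sorts in each culture, 4 to 10 averaged over them, 0 to 1 in the IL-21 mix, 1 to 7 in the IL-23 mix and 1 to 7 in the TGFb mix, against IL-12, 2 to 4 in the IL-23 mix, against the TGFb mix, 0 to 1 between GFPpos cells and 0 to 0 for the interaction. Over all genes the same fits gave 0 to 44 between the sorts in a culture, 340 to 1002, 14 to 85, 298 to 744, 863 to 2178, 667 to 1606, 317 to 492 and 0 to 1. Without the single TGFb mix GFPpos library there is no fit of its sorts or of the mean over 3 cultures. Of 478 list medians under the alternatives, 442 moved by less than 1 SD between libraries and 36 by more.

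The labels tie the replicate numbers to no shared source, and 8 of 31 same-numbered pairs had deviations correlated above 0.1 (-0.086 to 0.265), so the numbers were not used as pairs. Among both sorts of the IL-21 mix and IL-23 mix GFPneg all 7 pairs were above 0.1, a hint from the data that these libraries vary by number. In the comparisons with 3 numbered pairs, no pair was above 0.1 (-0.0861 to 0.0732). Between the sorts of the IL-21 mix the pairs were at 0.156 and 0.116. With a replicate block 6 genes passed averaged over sorts, 1 in the IL-21 mix, 6 in the IL-23 mix and 4 in the TGFb mix, against IL-12, 3 in the IL-23 mix, against the TGFb mix, 1 between GFPpos cells, and 0 in each culture's sorts and in the interaction. Calls lost under the block were Tm7sf2 and Elovl6 averaged over sorts, Elovl6 and Scd1 in the TGFb mix, against IL-12, and Hmgcs1 in the IL-23 mix, against the TGFb mix. Of all genes 135 passed in the IL-21 mix under the block. With 1 to 3 libraries a group and no read counts, changes in genes near 1 TPM are the least certain.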
